A study of Mus musculus with 6 samples.

Results

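The 35 genes described here encode enzymes and regulators of glycolysis and of glycogen synthesis and breakdown in mouse skeletal muscle. They were selected from the table by gene symbol, without a threshold on any value, and make up 35 of the 24532 genes in the deposited table. The glycolytic branch holds 21 of them, with the lactate carrier Slc16a3 and the side-step enzymes Fbp2 and Gpd1, and the glycogen branch holds 14. RNA was sequenced from gastrocnemius, a mixed calf muscle, of C57BL/6 mice aged 12 weeks. The knockout group (n = 3) had Ckmm-Cre and USP21 flox/flox alleles, and the control group (n = 3), entered as Litter, had USP21 flox/flox alleles without a listed Cre. The Ckmm promoter drives Cre in muscle fibres, so the other cells of the tissue are not its target, and mice with Ckmm-Cre and unfloxed alleles were not analysed here. The question named by the design is how RNA levels in this muscle differ when the deubiquitinase USP21 is missing from muscle fibres.

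Glycolysis splits glucose into pyruvate and yields ATP without oxygen, and lactate dehydrogenase turns the pyruvate into lactate when oxidation lags. Skeletal muscle stores glucose as glycogen, which glycogenin primes, glycogen synthase lengthens and glycogen phosphorylase takes apart during contraction. Fast fibres are known for abundant glycolytic enzymes and slow fibres for more oxidative metabolism, and most glycolytic steps have an isoform that muscle prefers.

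Sequenced libraries held between 48658436 and 67332846 counts, and between 15609 and 15953 genes had at least 1 count. In CPM, counts scaled to library size and corrected by TMM (trimmed mean of M-values) factors, Usp21 itself stood at 9.08, 7.19 and 7.47 in knockout libraries, against 19.3, 19.3 and 19.2 in control libraries. That difference passed edgeR's quasi-likelihood test (log2 fold change -1.28, SE 0.11, edgeR adjusted p = 0.0355). Over all 14109 genes tested, 5 were called higher and 3 lower in knockouts. Fast-fibre markers summed to 161900, 197200 and 159700 CPM in knockouts and 150600, 137000 and 177600 CPM in controls, with 10 of 10 markers of the labelled tissue's main fibre type detected. Slow-fibre markers, also 10 of 10 detected, summed to 1196, 831 and 1938 CPM in knockouts and 1627, 1601 and 207 CPM in controls, and the sum of control 3 was the lowest of the 6. Because the labels give no litter or cage for any animal, p-values measure only the spread between these samples.

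Start-site windows from RefSeq (build GRCm38.p6), reaching from 250 bases before to 50 bases after an annotated start, were found for 34 of the 35 genes, all but Gpd1. The core of the hypoxia response element, ACGTG on either strand, lay in a window of 12 of 20 glycolytic genes (60%) and 8 of 14 glycogen genes (57.1%). It lay in 21.8% of all 27025 genes with a window and in 28.7% of the 11136 such genes that were tested. Genes with several windows had more chances to match, and the 34 genes had 46 windows. The E-box letters CAGCTG, which myogenic factors can bind, lay in 6 of 20 glycolytic genes (30%) and 7 of 14 glycogen genes (50%), against 18.3% of all genes and 18.5% of tested genes. The longer CACGTG, each copy of which contains ACGTG, lay in 3 glycolytic genes (15%) and 3 glycogen genes (21.4%), against 8.09% of all genes and 11.5% of tested genes. The estrogen-related receptor letters AAGGTCA lay in windows of Eno1 and Tpi1 and of no glycogen gene, against 5.38% of all genes and 3.96% of tested genes. The MEF2 motif lay in a window of Pgam2 and of Ppp1r3a, against 3.7% of all genes and 2.36% of tested genes. These are letter matches and not measured binding.

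A window of each of 4 genes that the results return to is printed here, 5′ to 3′ on the gene's strand, with ACGTG and its reverse complement in capitals. Hk2 and Gyg had the smallest p of their branches, and Ldha and Ldhb are the paired isoforms of the last step, with opposite patterns across libraries. The window of Hk2 lies at chr6:82774405-82774704 (minus strand), that of Gyg at chr3:20155067-20155366 (minus strand), the first of the 2 windows of Ldha at chr7:46845554-46845853 (plus strand) and that of Ldhb at chr6:142507908-142508207 (minus strand).
Hk2: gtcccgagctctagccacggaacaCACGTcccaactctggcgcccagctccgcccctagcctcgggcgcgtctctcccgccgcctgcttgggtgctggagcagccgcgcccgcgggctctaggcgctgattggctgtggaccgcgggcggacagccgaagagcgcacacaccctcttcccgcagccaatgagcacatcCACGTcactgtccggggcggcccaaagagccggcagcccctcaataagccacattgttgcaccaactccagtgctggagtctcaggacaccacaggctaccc
Gyg: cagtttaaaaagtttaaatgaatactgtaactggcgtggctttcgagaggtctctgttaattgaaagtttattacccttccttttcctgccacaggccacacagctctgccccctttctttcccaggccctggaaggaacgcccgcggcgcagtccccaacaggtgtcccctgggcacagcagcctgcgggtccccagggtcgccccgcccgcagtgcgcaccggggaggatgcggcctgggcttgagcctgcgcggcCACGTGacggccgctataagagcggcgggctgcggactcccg
Ldha: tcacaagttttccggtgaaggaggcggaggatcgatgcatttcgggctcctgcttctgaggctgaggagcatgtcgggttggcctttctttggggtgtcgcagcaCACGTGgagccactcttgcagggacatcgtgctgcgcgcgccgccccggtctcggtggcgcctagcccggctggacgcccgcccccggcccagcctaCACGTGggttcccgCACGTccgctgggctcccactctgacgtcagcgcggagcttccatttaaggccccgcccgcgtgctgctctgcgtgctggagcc
Ldhb: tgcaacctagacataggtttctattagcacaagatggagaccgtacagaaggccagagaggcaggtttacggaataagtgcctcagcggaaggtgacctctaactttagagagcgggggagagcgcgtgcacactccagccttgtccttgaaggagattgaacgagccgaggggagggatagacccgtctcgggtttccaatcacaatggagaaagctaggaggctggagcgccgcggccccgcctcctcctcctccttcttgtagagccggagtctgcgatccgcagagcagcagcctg
Counting each strand, the printed Ldha window holds 5 matches, and its 2 copies of CACGTG match on both strands. The other Ldha window, at chr7:46846832-46847131 (plus strand), holds 0 and is not printed. The window of Hk2 holds 2 separate matches, that of Gyg holds 2 on opposite strands of 1 CACGTG, and that of Ldhb holds 0.

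None of the 35 genes passed edgeR's quasi-likelihood test after adjustment over all 14109 genes, of which 0.0567% were called. The smallest adjusted p among them was 0.363 (edgeR, Hk2). At an unadjusted edgeR p under 0.05 there were 4 of 35 (11.4%), Hk2, Pfkp, Gyg and Phka1, against 11.6% of all genes tested. The knockout and control libraries did not overlap for 6 of 35 (17.1%), Hk2, Hk1, Slc16a3, Phka1 and Pgm1 on the higher side and Gyg on the lower, against 17.3% of all genes tested. Both shares lie near the background. Pgm1 is the table's name for Entrez 66681, which RefSeq names Pgm2. DESeq2's Wald test called 2.14% of the genes to which it gave an adjusted p and limma-voom called 0.0354%, and each called 0 of the 35. Without knockout 3, edgeR called 0.982% of genes and again 0 of the 35. All 35 passed the filter on low counts.

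The directions were uneven. In knockouts, 17 of 21 glycolytic genes had a positive log2 fold change (81%) and 9 of 14 glycogen genes did (64.3%), while 49.3% of all genes tested did. The median log2 fold change was 0.16 over the glycolytic branch, 0.071 over the glycogen branch and -0.0037 over all genes tested. The branches' medians thus differed by 0.087. Without Slc16a3, Fbp2 and Gpd1, 14 of the 18 core glycolytic genes were positive with a median of 0.13. These genes share libraries and move together, so counts of directions are a description and not a test. Without knockout 2 the glycolytic median was 0.075 and the glycogen median 0.038, and without control 3 they were 0.23 and 0.14.

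**Figure D1:**
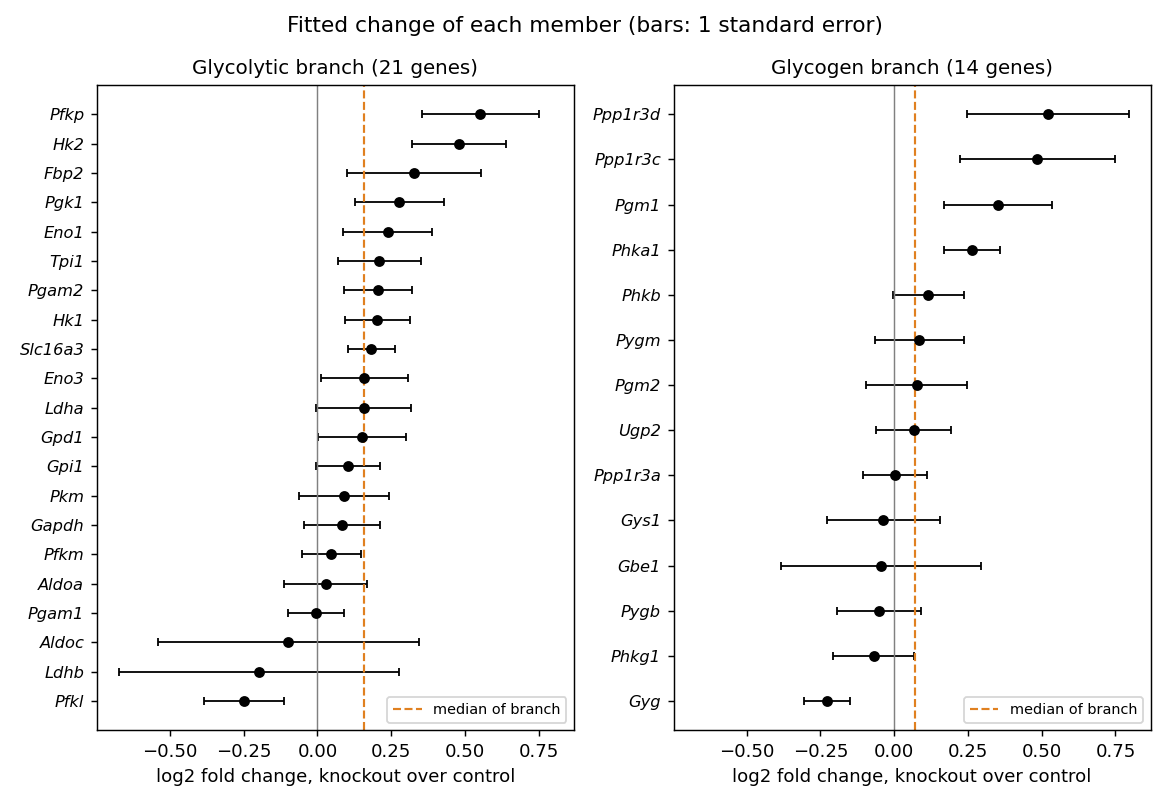
Log2 fold change of each of the 35 genes, knockout over control, with its SE from edgeR, on a horizontal axis in log2 units, by branch. The 21 glycolytic genes run from -0.25 (Pfkl) to 0.55 (Pfkp) and the 14 glycogen genes from -0.23 (Gyg) to 0.52 (Ppp1r3d).

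Hk2 (Entrez 15277, chromosome 6, 82725025 to 82774454 on GRCm38.p6), the muscle hexokinase that traps glucose as glucose-6-phosphate, stood at 742, 781 and 585 CPM in knockouts, against 562, 544 and 407 CPM in controls. All 3 knockout libraries lay above all 3 control libraries, with knockout 3 only just above control 1. Its log2 fold change came to 0.48 (SE 0.16, edgeR adjusted p = 0.363), at means of 703 ± 104 CPM in knockouts and 504.2 ± 85 CPM in controls (SD, n = 3 each). Hk1, the housekeeping hexokinase, stood at 17.3, 14.2 and 14.2 CPM in knockouts, against 12.3, 13.7 and 13.7 CPM in controls (log2 fold change 0.20, SE 0.11, edgeR adjusted p = 0.533). Without control 3, the lowest library for Hk2, its log2 fold change was 0.35. The groups of Hk1 did not overlap either, though 2 knockout libraries were within 1 CPM of 2 control libraries, and without knockout 1 the log2 fold change of Hk1 was 0.096.

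The 3 phosphofructokinase genes, whose product commits sugar to glycolysis, did not point the same way. Pfkm, the muscle isoform, had 4120, 4724 and 4374 CPM in knockouts and 4281, 4102 and 4405 CPM in controls (log2 fold change 0.048, SE 0.099). Pfkp (Entrez 56421, chromosome 13, 6579874 to 6649060), the platelet isoform, had 11.6, 11.8 and 8.38 CPM in knockouts, against 6.14, 9.08 and 6.38 CPM in controls. Knockout 3 lay between the control libraries, with a log2 fold change of 0.55 (SE 0.20, edgeR adjusted p = 0.376). Fibroblast markers, 6 of 6 detected, summed to 2607, 2481 and 2181 CPM in knockouts and 1670, 2229 and 1429 CPM in controls. As for Pfkp, that sum was lowest in knockout 3 among knockouts and highest in control 2 among controls. Log2 fold changes were positive for 6 of 6, at 0.70, 0.65 and 0.62 for Col1a1, Col1a2 and Col3a1. Those of Dcn, Pdgfra and Lum were 0.11, 0.19 and 0.15. Among knockouts Dcn was highest in knockout 3, at 804 CPM, and Pdgfra and Lum were lowest in knockout 2. The part of fibroblasts in the Pfkp result was not tested. More cells of a type and more RNA per cell cannot be told apart in whole muscle. Pfkp also shares 285 bases with Pitrm1 on the annotation. Pitrm1 averaged 3375 counts and Pfkp 521, and any use of strand in counting is not given in the sources used here. Pitrm1 had a log2 fold change of 0.096 (SE 0.072). Pfkl, the liver isoform, had 9.59, 12.0 and 13.4 CPM in knockouts, against 14.2, 14.4 and 13.0 CPM in controls. The groups overlapped, with a log2 fold change of -0.25 (SE 0.13, edgeR adjusted p = 0.529) that was -0.13 without knockout 1.

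Aldoa, which splits fructose-1,6-bisphosphate, was the most abundant of the 35 genes per length. It stood at 11870 ± 285 FPKM (fragments scaled to gene length and library size) in knockouts and 12130 ± 1229 FPKM in controls (SD, n = 3 each). In CPM it had 18386, 19758 and 17747 in knockouts and 17589, 16015 and 21197 in controls. Control libraries lay on both sides of all knockout libraries, with a log2 fold change of 0.028 (SE 0.14). Aldoc, the brain isoform, had 0.383, 0.218 and 0.438 CPM in knockouts and 0.239, 0.463 and 0.408 CPM in controls. Gpi1, the isomerase after hexokinase, had a log2 fold change of 0.10 (SE 0.11), and Tpi1, triose phosphate isomerase, of 0.21 (SE 0.14). Among side steps, Fbp2, the muscle fructose-bisphosphatase that runs against phosphofructokinase, had 0.33 (SE 0.23). Gpd1, cytosolic glycerol-3-phosphate dehydrogenase, had 962, 1119 and 957 CPM in knockouts and 886, 750 and 1100 CPM in controls. Gpd1 is also abundant in fat cells, and adipocyte markers, 7 of 7 detected, summed to 274, 516 and 255 CPM in knockouts and 261, 226 and 361 CPM in controls. The highest library of each group, knockout 2 and control 3, was the same for Gpd1 and for that sum. Among the adipocyte markers, Fabp4 was lowest in control 3 among controls (183, 182 and 173 CPM). Lep was highest in knockout 1 among knockouts, at 1.79 CPM against 1.78 CPM in knockout 2. The other listed adipocyte markers were highest in knockout 2 and control 3 of their groups. This order was not particular to Gpd1 and that sum. Knockout 2 was the highest knockout library for 15 of the 21 glycolytic genes, and control 3 the highest control library for 14. The fast-fibre marker sum was also highest in these libraries. The part of fat cells in Gpd1's values was not tested.

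In the lower part of the pathway, from glyceraldehyde-3-phosphate to pyruvate, 6 of 7 genes had positive log2 fold changes, against 49.3% of all genes tested. Their median over the 7 was 0.16. Separate groups were seen for 0 of 7, against 17.3% of all genes tested, and so few genes say little beside that share. Pgk1, phosphoglycerate kinase, which makes ATP, was the member there with the smallest p. It had 964, 1120 and 824 CPM in knockouts, against 780, 688 and 930 CPM in controls (log2 fold change 0.28, SE 0.15, edgeR adjusted p = 0.533). Control 3 lay above knockout 3, so the groups overlapped, and without knockout 2 the log2 fold change was 0.16. Pgam2, the muscle phosphoglycerate mutase, had 1992, 2232 and 1829 CPM in knockouts and 1762, 1577 and 1912 CPM in controls, while Pgam1, the widely expressed isoform, had 16.2, 14.2 and 14.4 CPM in knockouts and 16.0, 14.8 and 14.3 CPM in controls. The log2 fold changes were 0.21 (SE 0.12) for Pgam2 and -0.0045 (SE 0.096) for Pgam1. Eno3, the muscle enolase, had 5608, 6239 and 4995 CPM in knockouts and 5140, 4205 and 5736 CPM in controls. Eno1, the widely expressed enolase, had 91.6, 112 and 73.9 CPM in knockouts and 78.6, 72.7 and 84.3 CPM in controls. Both enolases were highest in knockout 2 and lowest in control 2. A processed copy of Eno1, Eno1b, had 267 counts in knockout 2, where Eno1 had 5668, and 4 or fewer in the other libraries. Gapdh and Pkm, the dehydrogenase and the kinase that ends glycolysis, had log2 fold changes of 0.084 (SE 0.13) and 0.090 (SE 0.15).

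Slc16a3 (Entrez 80879, chromosome 11, 120948484 to 120959000), the MCT4 carrier that exports lactate from fast fibres, stood at 424, 440 and 452 CPM in knockouts, against 388, 365 and 406 CPM in controls. The groups were separate, each with a narrow spread, with a log2 fold change of 0.18 (SE 0.08, edgeR adjusted p = 0.435). Its annotated neighbour Csnk1d, which overlaps it, had a log2 fold change of -0.066 (SE 0.068). Ldha, the lactate-forming subunit that prevails in fast muscle, had 2675, 3247 and 2425 CPM in knockouts and 2445, 2095 and 2945 CPM in controls (log2 fold change 0.16, SE 0.16). Ldhb, the subunit that prevails in heart and oxidative muscle, had 229, 138 and 291 CPM in knockouts and 322, 341 and 92.4 CPM in controls (log2 fold change -0.20, SE 0.47). Of the windows printed for this pair, that of Ldha holds ACGTG and that of Ldhb does not, nor does the other Ldha window. Without control 3 the log2 fold change of Ldhb was -0.60, and without knockout 2 it was 0.046. For Ldhb the highest library held 2.12 times the lowest among knockouts and 3.69 times among controls, the widest control range of the 35 genes.

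**Figure D2:**
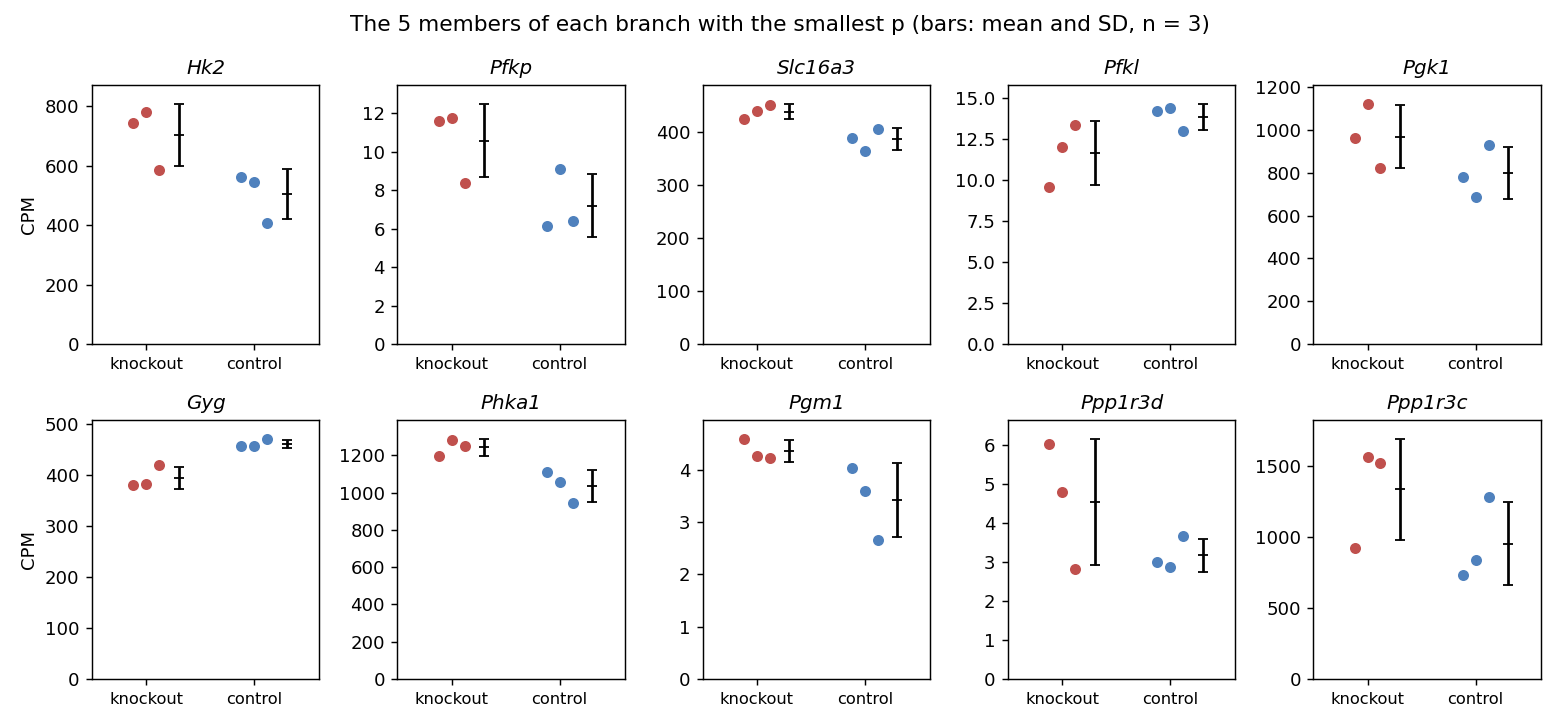
CPM (vertical axes, from 0) of the 5 genes of each branch with the smallest edgeR p, 1 point per library, knockout left of control, with mean and SD (n = 3 each). Hk2, Slc16a3, Phka1 and Pgm1 lie above and Gyg below the control libraries without overlap, while Pfkp, Pfkl, Pgk1, Ppp1r3d and Ppp1r3c overlap. Pgm1 is the table's name for Entrez 66681, Pgm2 in RefSeq.

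In the glycogen branch Gyg (Entrez 27357, chromosome 3, 20122083 to 20155117), glycogenin, which primes each new glycogen particle, had the smallest p. It stood at 380, 382 and 419 CPM in knockouts, against 457, 456 and 471 CPM in controls. The lowest control library lay above the highest knockout library, and the control values were within 1.03 times of each other. On the log2 scale the fold change came to -0.23 (SE 0.08, edgeR adjusted p = 0.367), at means of 394 ± 21.7 CPM in knockouts and 461 ± 8.23 CPM in controls (SD, n = 3 each). Gys1, the muscle glycogen synthase that extends the chain, had 594, 560 and 716 CPM in knockouts and 736, 724 and 459 CPM in controls (log2 fold change -0.037, SE 0.19). Gbe1, the branching enzyme, had 62.3, 46.5 and 77.8 CPM in knockouts and 72.6, 86.8 and 33.4 CPM in controls (log2 fold change -0.046, SE 0.34). In both genes control 3 was the lowest of all 6 libraries, and without it the log2 fold changes were -0.23 for Gys1 and -0.36 for Gbe1. Ugp2, which makes UDP-glucose, had a log2 fold change of 0.065 (SE 0.13).

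2 genes of the phosphoglucomutase family are named in the table the other way round from RefSeq's current gene table. The gene with Entrez identifier 66681, named Pgm1 in the table, is Pgm2 in RefSeq, and identifier 72157, named Pgm2 in the table, is Pgm1. The abundant one, Entrez 72157, turns glucose-1-phosphate into glucose-6-phosphate. It had 1660, 1884 and 1498 CPM in knockouts and 1465, 1313 and 2005 CPM in controls (log2 fold change 0.076, SE 0.17). The scarce one, Entrez 66681, had 4.59, 4.26 and 4.22 CPM in knockouts, against 4.03, 3.58 and 2.65 CPM in controls, with separate groups (log2 fold change 0.35, SE 0.18, edgeR adjusted p = 0.509). Without control 3, the lowest library, the log2 fold change was 0.20. Values are given here under the table's names.

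Among breakdown genes, Pygm, muscle glycogen phosphorylase, which frees glucose-1-phosphate, had the highest level per length of the branch. It stood at 3535 ± 219 FPKM in knockouts and 3493 ± 437 FPKM in controls (SD, n = 3 each). In CPM it had 9844, 11770 and 10077 in knockouts and 9615, 8492 and 11763 in controls (log2 fold change 0.085, SE 0.15). Control 3 lay within the knockout range, and the other control libraries below it. Pygb, the brain isoform, had 8.90, 8.66 and 11.2 CPM in knockouts and 9.55, 11.2 and 9.08 CPM in controls. Phosphorylase kinase switches phosphorylase on. Phka1 (Entrez 18679, chromosome X, 102513975 to 102644301), its muscle alpha subunit, stood at 1196, 1284 and 1249 CPM in knockouts, against 1110, 1054 and 943 CPM in controls. The groups were separate, with a log2 fold change of 0.26 (SE 0.09, edgeR adjusted p = 0.373). The other subunits had log2 fold changes of 0.12 (SE 0.12) for Phkb, the beta subunit, and -0.070 (SE 0.14) for Phkg1, the muscle catalytic subunit.

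The 3 targeting subunits of this branch bring protein phosphatase 1 to glycogen, where it favours synthesis. Their median log2 fold change was 0.49, which Ppp1r3a did not share. Nor did other targeting subunits tested outside the branch. Ppp1r3b had -0.69 (SE 0.35), Ppp1r3e -0.19 (SE 0.19) and Ppp1r3f 0.073 (SE 0.17). The groups of Ppp1r3e were separate, only just, with knockouts lower. Ppp1r3c had 925, 1564 and 1520 CPM in knockouts, against 735, 841 and 1286 CPM in controls. Knockout 1 lay below control 3, with a log2 fold change of 0.49 (SE 0.26, edgeR adjusted p = 0.531). Ppp1r3d, a scarce subunit, had 6.03, 4.80 and 2.83 CPM in knockouts, against 2.99, 2.87 and 3.66 CPM in controls (log2 fold change 0.52, SE 0.27, edgeR adjusted p = 0.517). Knockout 3 was the lowest of all 6 libraries, and without knockout 1, the highest, the log2 fold change was 0.26. Ppp1r3d overlaps Fam217b over 760 bases of the annotation. Ppp1r3a, the abundant striated-muscle subunit, had 265, 303 and 331 CPM in knockouts and 301, 323 and 274 CPM in controls (log2 fold change 0.0031, SE 0.11).

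**Figure D3:**
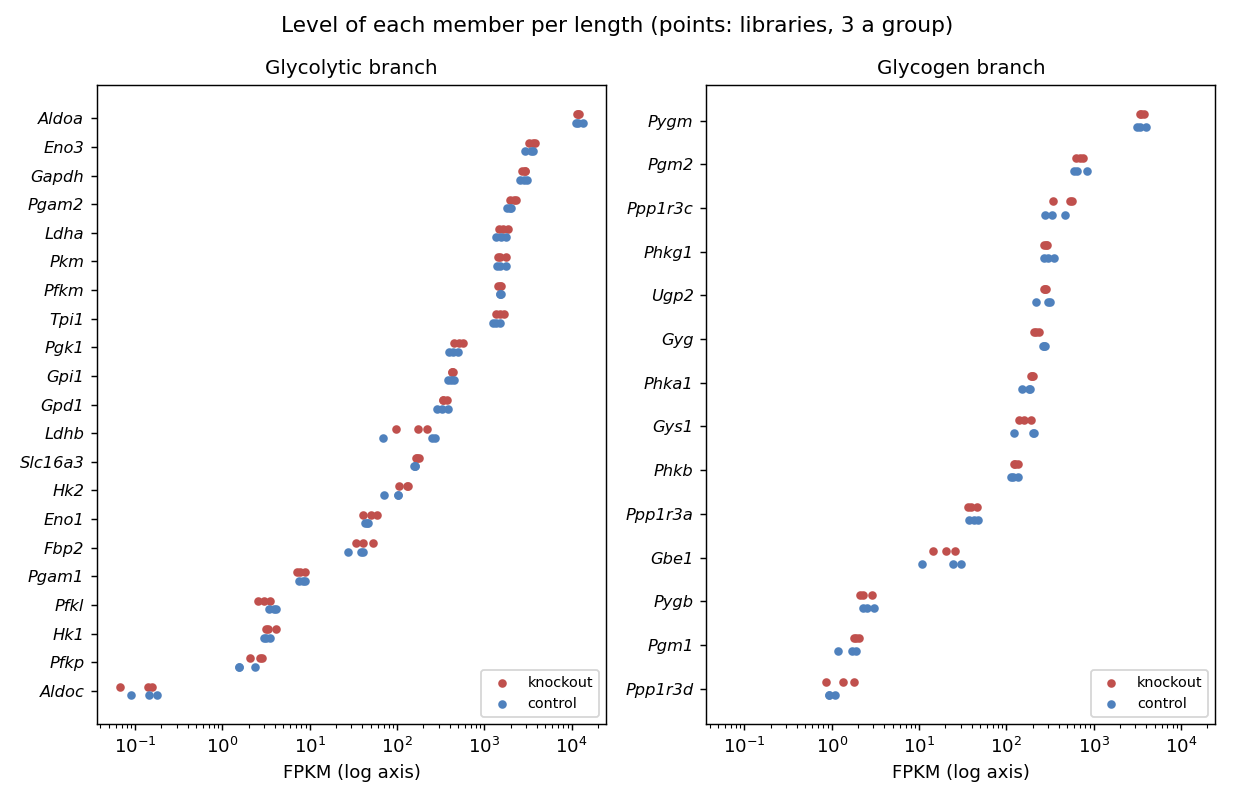
FPKM (horizontal log axis) of each gene of the 2 branches, 1 point per library, knockout points above control points and genes ordered by mean level. Knockout means span from 0.121 FPKM for Aldoc to 11870 FPKM for Aldoa.

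Levels per length differed far more between genes than between groups. Of the 21 glycolytic genes, 8 had a mean over 1000 FPKM and 5 a mean under 10, and of the 14 glycogen genes 1 and 3. In the order of glycolytic levels Aldoa came first, then Eno3, Gapdh, Pgam2, Ldha, Pkm, Pfkm and Tpi1. Library values of neighbours in this order overlapped, except between Aldoa and Eno3 and between Gapdh and Pgam2. The muscle-enriched isoform held most of the summed FPKM at each of 7 steps. At the hexokinase step Hk2 held 97.0, 97.6 and 96.9% in knockouts and 97.2, 96.8 and 95.7% in controls. At the lactate dehydrogenase step Ldha held 90.4, 95.0 and 87.0% in knockouts and 85.9, 83.1 and 96.2% in controls, the most variable share of the 7. Shares in the other steps averaged 98.6% or more in each group, for Pfkm, Aldoa, Pgam2, Eno3 and Pygm. The differences in share, knockout minus control, ran from -0.0515 to 2.36 percentage points, for Eno3 and Ldha. None passed the two-sided exact permutation test over the 6 libraries, whose smallest possible p is 0.1 with 3 against 3 (exact p of 0.3 to 1, at least 0.933 after Benjamini-Hochberg adjustment over the 7).

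**Figure D4:**
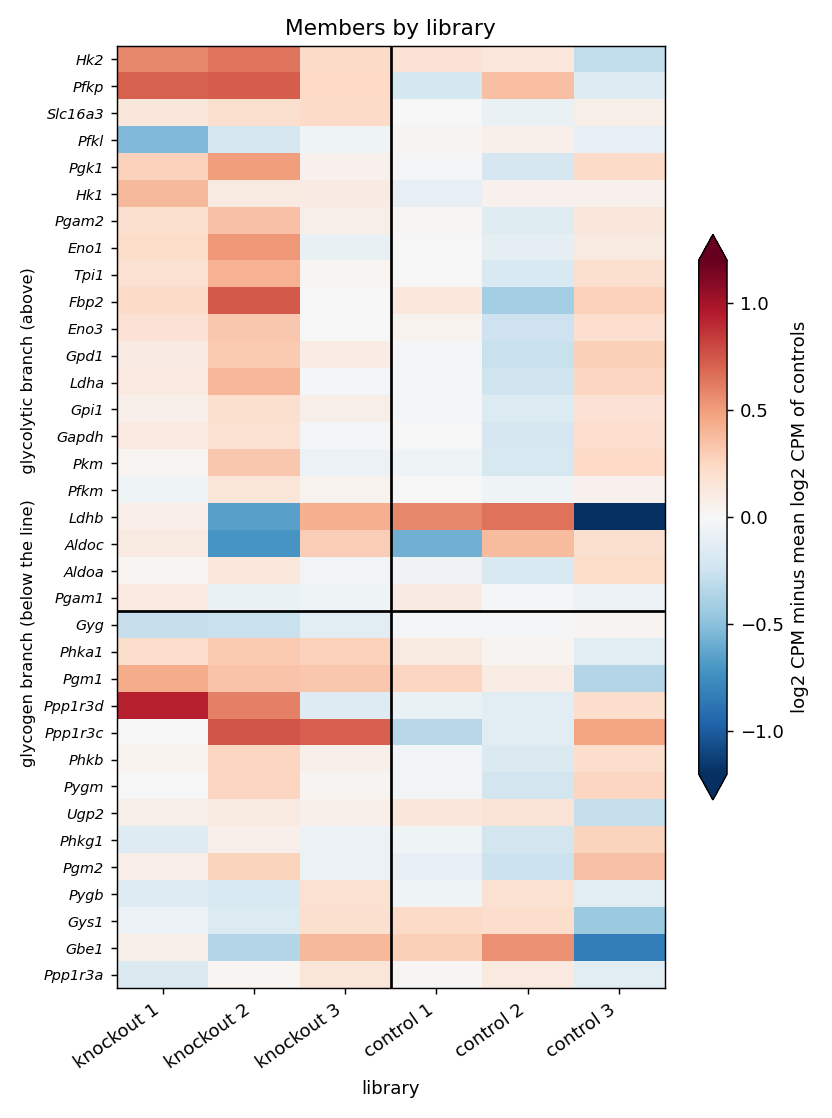
Log2 CPM of each of the 35 genes in each library relative to its control mean, knockout columns left of control columns. Most glycolytic rows are high in knockout 2 and control 3 and low in control 2, with Ldhb the other way round.

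Libraries of the same group differed from each other in a way that most glycolytic genes shared. Of the 21 glycolytic genes, 15 were highest in knockout 2 among knockouts and 14 were lowest in knockout 3. Among controls 14 were highest in control 3 and 14 were lowest in control 2. The median deviation of the glycolytic branch from the control mean was 0.12, 0.31 and 0.038 log2 units in knockouts 1 to 3, against 0.0023, -0.15 and 0.18 in controls 1 to 3. Control 3 therefore stood above 2 of the 3 knockout libraries. The median of the glycogen branch spread less, at 0.021, 0.18 and 0.10 log2 units in knockouts, against -0.025, 0.0069 and -0.048 in controls. Single glycogen genes did not spread less in both groups. The SD of a gene's CPM, as a percentage of its mean, had a median of 16.5% among controls for glycogen genes and 14.5% for glycolytic genes. Among knockouts these were 10.5% and 13.9%. By the glycogen branch median each knockout library was above each control library, with knockout 1 at 0.021 close to control 2 at 0.0069. Glycogen genes above their control mean numbered 7, 10 and 10 of 14 in knockouts and 6, 7 and 7 in controls. The summed CPM of the branch overlapped between groups. The pooled SD of library medians was 0.15 log2 units for the glycolytic and 0.060 for the glycogen branch. The glycolytic minus glycogen difference within a library was 0.096, 0.13 and -0.066 in knockouts, against 0.027, -0.15 and 0.22 in controls, and the groups overlapped.

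The glycolytic genes took 4.785, 4.998 and 4.521% of counts in knockouts and 4.657, 4.315 and 5.107% in controls. The glycogen genes took 1.694, 1.88 and 1.788% in knockouts and 1.712, 1.63 and 1.907% in controls. Both shares were highest in control 3. In TMM-corrected CPM both sums were highest in knockout 2 instead. The glycolytic sum was 53396.5 CPM there and 52021.7 CPM in control 3, and the glycogen sum 20086.6 and 19426.6 CPM. In FPKM the glycolytic sum was 5.01, 4.67 and 4.47 times the glycogen sum in knockouts and 4.80, 4.67 and 4.64 times in controls. Control 3 and knockout 2 had the highest glycolytic totals of their groups.

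Ldhb, Gbe1 and Gys1 followed another order. Their 3 lowest libraries were control 3, then knockout 2, then knockout 1, and the summed slow-fibre markers had the same order, at 207, 831 and 1196 CPM. No other of the 35 genes had that order of lowest libraries. Each slow-fibre marker was lowest in control 3 and next lowest in knockout 2. For Tnni1, Tnnc1 and Tpm3 a control library then came below knockout 1, so they did not share the full order. Myh2, the myosin of oxidative fast fibres, had 3243, 2182 and 4697 CPM in knockouts and 4460, 4711 and 1193 CPM in controls. The summed fast-fibre markers were highest in knockout 2 (197200 CPM) and, among controls, in control 3 (177600 CPM). Most glycolytic genes were highest in these libraries of their groups too. Myh1, a listed fast-fibre marker, went the other way, with 5084, 4429 and 7172 CPM in knockouts and 5063, 7230 and 1952 CPM in controls. The other listed fast-fibre markers were highest in knockout 2 among knockouts and in control 3 among controls. The part of fibre mix in these results was not tested. Erythroid markers summed to 191, 1010 and 274 CPM in knockouts and 241, 197 and 249 CPM in controls, so knockout 2 also stood apart in those.

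**Figure D5:**
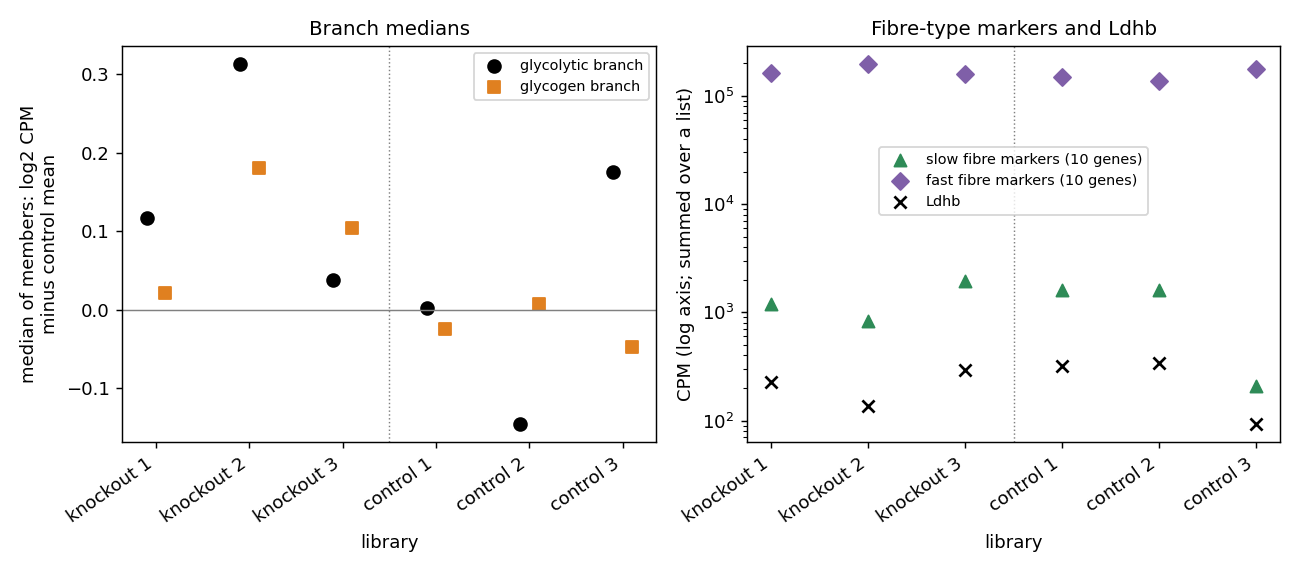
Left, median deviation of each branch from the control mean (log2 CPM) in each library; right, slow-fibre and fast-fibre marker sums and Ldhb in CPM on a log axis. Control 3 has a glycolytic median of 0.18 and a slow-fibre sum of 207 CPM, against 1627 and 1601 CPM in the other control libraries.

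Of 37 further genes of glycolysis and its side paths, 30 were tested, 15 with a positive and 15 with a negative log2 fold change, and 0 were called. Of 26 further glycogen genes, 24 were tested, 11 positive and 13 negative, and 0 were called. At an unadjusted edgeR p under 0.05 there was 1 of the 30 and 0 of the 24, against 11.6% of all genes tested. That gene was Pfkfb3, which makes and breaks the phosphofructokinase activator fructose-2,6-bisphosphate. It had 92.4, 92.6 and 55.3 CPM in knockouts, against 134, 245 and 248 CPM in controls. The groups were separate, with a log2 fold change of -1.38 (SE 0.28, edgeR adjusted p = 0.241). Next by p came Adpgk, an ADP-dependent glucokinase, with 17.4, 17.5 and 13.9 CPM in knockouts and 11.6, 13.8 and 14.5 CPM in controls (log2 fold change 0.29, SE 0.13). Pck1, which makes phosphoenolpyruvate, had a log2 fold change of 1.74 (SE 0.94). It stood at 5.68, 35.8 and 6.08 CPM in knockouts and 2.43, 1.39 and 10.3 CPM in controls, and 1 knockout library stood far above the rest. The further glycogen gene with the smallest p was Ppp1r3b, another phosphatase-targeting subunit, with 1.01, 0.773 and 0.511 CPM in knockouts and 0.977, 1.59 and 1.15 CPM in controls (log2 fold change -0.69, SE 0.35, edgeR adjusted p = 0.498). Rbck1, a ubiquitin ligase subunit linked to glycogen storage disease, had 33.7, 33.2 and 32.5 CPM in knockouts and 39.2, 34.0 and 36.2 CPM in controls (log2 fold change -0.14, SE 0.08). Stbd1, a glycogen-binding protein, had 63.5, 73.1 and 31.7 CPM in knockouts and 34.7, 35.2 and 51.6 CPM in controls (log2 fold change 0.47, SE 0.30). Only Rbck1 of these 3 had groups that did not overlap.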

How the data were processed

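Poly(A)-selected RNA of 6 gastrocnemius muscles was sequenced with a stranded kit, per the labels' protocols. The deposited counts are whole numbers of reads per gene. FPKM values in the deposited table come from the authors, as its headers name them. The submitters' processing notes list StringTie 1.3.4d, Bowtie2 2.3.4.1, bcl2fastq 2.20.0, the quality tool FastQC 0.11.7 and build mm10. Not given in the sources used here are their roles, the way reads were counted and any use of strand. The deposited TPM values were not used for any result. Columns of samples outside the series numbered 0.

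The genes and gene lists were chosen with earlier results of these data known. The counts were tested with edgeR 4.0.16 (R 4.3.3): filterByExpr with a minimum count of 10, TMM factors, quasi-likelihood fit without a block, and an adjusted p threshold of 0.05 (Benjamini-Hochberg over 14109 genes), with 10423 not tested. The common biological coefficient of variation was 19.2%. Fold changes are knockout over control. Log2 CPM used a prior count of 2. In these libraries 3 counts equal 0.0454 to 0.0598 CPM, a floor for counting error only. Shares of isoforms used FPKM with an exact permutation test. Library pairs within groups differed by chi-square per degree of freedom of 35.1 to 209, so each library was 1 sample. Scripts were tested on simulated data. All 35 genes are named. By rule, values per library are given for the 5 genes of each branch with the smallest edgeR p and the most abundant of each branch. The rule also covers the isoforms of 7 steps and, of the other pathway genes, the 3 with the smallest p in each list. Values per library of Gpd1, Gys1, Gbe1, the table's Pgm2 and Ppp1r3a lie outside this rule and were chosen after they were seen. Ppp1r3e and Ppp1r3f were also named after their values were seen. Overlapping annotated genes were found for 11 of the 35. Promoter sequences are RefSeq's, build GRCm38.p6. Other choices of scaling, filter, tool (DESeq2 1.42.0, limma 3.58.1), pseudocount, threshold, replicate block and left-out libraries were run.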

Additional observations from a re-analysis of the deposited data

How the results depend on the processing

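None of the 35 genes was called under any setting run. The smallest adjusted p among them over those settings was 0.102 (DESeq2, Hk2), and leaving out knockout 3 gave 0.124 (edgeR, Ppp1r3d), with 0.982% of genes then called. Over all genes, higher and lower calls numbered 210 and 80 with DESeq2, 4 and 1 with limma-voom, and 1 and 0 with limma on log2(FPKM + 1) and log2(FPKM + 0.1). Leaving out 1 library gave 1 to 120 higher and 0 to 21 lower calls, the most without knockout 3. The number of the 35 at an unadjusted edgeR p under 0.05 was 0 without knockout 2, against 7.04% of all genes in that fit, and 8 without control 3, against 10.6%.

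The replicate numbers are shared by the groups, but same-numbered libraries did not deviate together (r = -0.00823, -0.186 and -0.0981), and not every library correlated best with its own number. With a replicate block edgeR called 0 higher and 0 lower genes, and 3 of the 35 had an unadjusted p under 0.05, against 8.25% of all genes; Gbe1's log2 fold change was 0.022.

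On log2(FPKM + 1) the glycolytic median was 0.094 and the glycogen median 0.016, while the median of all genes was -0.047. Leaving out 1 library moved the glycolytic median between 0.0745 and 0.227, the glycogen median between 0.0375 and 0.137, and their difference between 0.0221 and 0.0936. Log2 fold changes that changed sign were near 0: Ppp1r3a (-0.00982 with upper-quartile factors, -0.069 and -0.0704 on the FPKM scales), Pfkm (-0.0248) and Aldoa (-0.0263) on both FPKM scales, Pgam1 (0.00042 with DESeq2, 0.00368 with limma-voom) and Gbe1 (0.0366 with limma-voom). Leaving out 1 library changed the sign of 15 genes, with these ranges: Gapdh -0.0192 to 0.189, Pkm -0.0347 to 0.217, Pfkm -0.00614 to 0.0885, Ldhb -0.596 to 0.0753, Aldoc -0.328 to 0.137, Aldoa -0.067 to 0.149, Pgam1 -0.0728 to 0.04, Pygm -0.0262 to 0.222, Ugp2 -0.0643 to 0.131, Phkg1 -0.184 to 0.0773, Pgm2 -0.0555 to 0.275, Pygb -0.181 to 0.0352, Gys1 -0.228 to 0.0723, Gbe1 -0.357 to 0.226 and Ppp1r3a -0.0741 to 0.0793. The shares of isoforms ranged, in percentage points, from 0.207 to 0.929 (Hk2), -0.0307 to 0.0174 (Pfkm), -0.00012 to 0.000309 (Aldoa), 0.0301 to 0.0865 (Pgam2), -0.118 to 0.017 (Eno3), -0.283 to 6.26 (Ldha) and -0.00263 to 0.0178 (Pygm). The cause of these shifts was not tested. Depth limits Aldoc, which was under 0.5 CPM in every library.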
